A study of Mus musculus with 7 samples.

Results

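The promoters of 10 transcription factors that direct cell fates other than cartilage were examined for peaks of H3K27ac and H3K4me2, measured by ChIP-Seq in primary mouse chondrocytes and, for H3K27ac, in dermal fibroblasts. They were Myod1, Myog, Myf5 and Pax3 of skeletal muscle, Pax6, Neurog2 and Olig2 of the nervous system, Gata1 and Spi1 of blood, and Foxa2 of endoderm. The 10 genes were listed by name, with no threshold on their values but with earlier results of these data known, out of 18094 protein-coding genes that could be placed in both genome builds of the data. None of the 10 had an H3K27ac peak within 1 kb of its transcription start site (TSS) in any list. Of the 10 promoters, 6 had a peak of H3K4me2 alone and 4 had no listed peak of either mark. Over all genes, 16.0% had H3K4me2 alone, 31.5% had no chondrocyte peak of either mark and 52.5% had chondrocyte H3K27ac.

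A master regulator is a transcription factor that can set a cell on one path of differentiation, and the 10 genes are textbook examples for tissues other than cartilage. Whether any of them also acts in cartilage was not examined. H3K27ac, an acetylation of histone H3, is found at active promoters and enhancers. H3K4me2, a methylation of the same histone, is found at active promoters and enhancers and also at many CpG-rich promoters of developmental genes that are not transcribed. An H3K4me2 peak without an H3K27ac peak therefore does not by itself show an active gene.

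The chondrocytes were grown from rib cartilage and the fibroblasts from dorsal skin, both of newborn mice, and chondrocytes were used within 2 passages. Chondrocyte H3K27ac had 2 replicate libraries, and chondrocyte H3K4me2 and dermal fibroblast H3K27ac had 1 library each, with no genotype given in the labels. A further pair of chondrocyte H3K27ac libraries was labelled by genotype, one WT and one E160(delta/delta);E308(delta/delta). The latter lacks, on both alleles, E160 and E308, a pair of enhancers upstream of Sox9 that were deleted with CRISPR/Cas9 in C57BL/6J embryos, and is called the double deletion here. An input library, the seventh sample, was not analysed here.

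The lists held between 19458 peaks (fibroblast) and 66369 peaks (H3K4me2), and their depth in reads is unknown. Replicate 2 was read with GRCm38 gene positions, where 7792 promoters had a peak against 1128 with mm9 positions, and the other 5 lists were read with mm9. No group had more than 2 libraries, so every comparison is a description without a p-value. The chondrocyte label was checked on 14 cartilage genes. Replicate 1 marked 8 of their promoters, H3K4me2 10 and each of the other chondrocyte H3K27ac lists 12, while fibroblasts marked 1. Among them Acan, which encodes aggrecan, and Comp had a promoter peak in all 4 chondrocyte H3K27ac lists and none in fibroblasts. Col2a1, Col11a1 and Sox6, named after their values were seen, lacked a promoter peak in both replicate 1 and H3K4me2 and had one in every other chondrocyte list. Of 10 dermal fibroblast genes, the fibroblast list marked 5 and had no promoter peak at Col1a1, Col1a2, Col3a1, Twist1 or Prrx1. Of the cartilage genes, Matn1, also named after its values were seen, was bare in every list. Sox5, likewise, had H3K4me2 (top 3.22%) and no H3K27ac peak in any list. Bare therefore means that no peak was listed, not that a mark was absent, and H3K4me2 alone was also seen at a gene of the cartilage list.

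Across all genes, 44.2% had a promoter peak in replicate 1 and 43.1% had one in replicate 2. The share was 50% for the WT library, 47.1% for the double deletion, 47.5% for fibroblasts and 66.2% for H3K4me2. The 10 regulators had 0 promoter peaks in each of the 5 H3K27ac lists and 6 in the H3K4me2 list. By class, 4 of 10 were bare, 6 had H3K4me2 alone and 0 were acetylated in any of the 4 chondrocyte lists. Over all genes 31.5% (95% CI, 30.8–32.2; exact binomial, Clopper-Pearson) were bare, 16.0% (15.5–16.5) had H3K4me2 alone and 52.5% (51.8–53.3) were acetylated. These intervals cover counting error only. No list marked the 4 bare promoters, a state shared by 31.3% of all genes, and 0 of the 10 were marked in every chondrocyte H3K27ac list, where 38.1% of all genes were. Of all promoters with H3K4me2, 24.1% carried it alone, and all 6 of the regulators with H3K4me2 did. In a whole culture, a mark on a few cells and a weak mark on all cells cannot be told apart, and either can stay under the threshold for a peak.

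**Figure D1:**
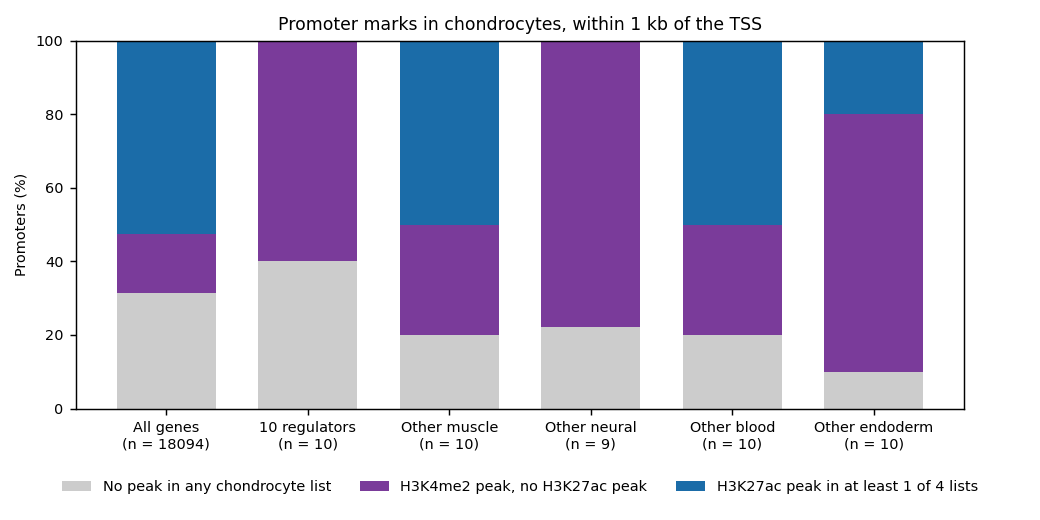
Share of promoters (%) in 3 classes of chondrocyte marks within 1 kb of the TSS, for all 18094 genes, the 10 regulators and 4 lists of other regulators. The bar of the 10 regulators has no acetylated part, while 52.5% of all promoters were acetylated.

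The bare promoters belonged to Myod1, Myog, Gata1 and Spi1, and the promoters with H3K4me2 alone to Myf5, Pax3, Pax6, Neurog2, Olig2 and Foxa2. All 3 neural genes and the endoderm gene carried H3K4me2, as did 2 of the 4 muscle genes, and neither blood gene did. With so few genes of each lineage these counts were not compared by a test. The distance from the TSS to the nearest H3K27ac peak was long for most of the 10. Its median over the 10 genes was 83.5 kb for replicate 1, 113 kb for replicate 2, 103 kb for WT, 133 kb for the double deletion and 181 kb for fibroblasts. The medians over all genes were 6.94, 9.37, 1.0, 4.92 and 3.57 kb in the same order. For H3K4me2 the median was 0.486 kb over the 10 genes and 0.032 kb over all genes.

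**Figure D2:**
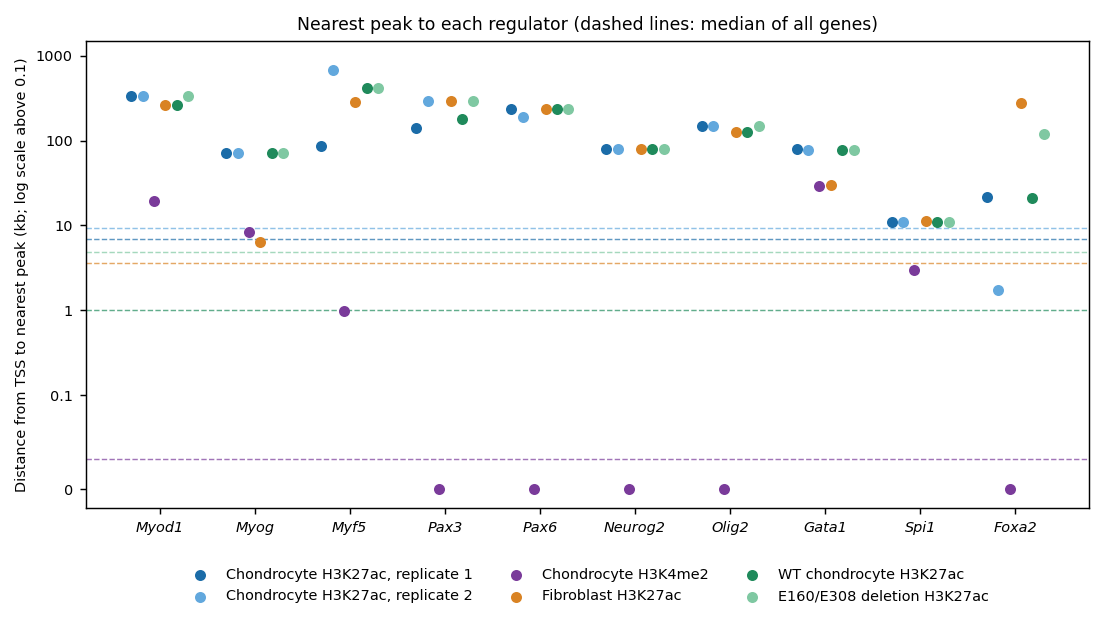
Distance from the TSS to the nearest peak (kb, log scale above 0.1) for each of the 10 regulators in each of 6 lists, 1 point per gene and list, with dashed lines at the median of all genes in the same colour. Points of the H3K27ac lists lie above their dashed line, except replicate 2 at Foxa2 (1.73 kb), and H3K4me2 points lie at 0 for 5 genes.

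Myod1 and Myog are members of the basic helix-loop-helix family that drive muscle precursors into myotubes, Myod1 at commitment and Myog at terminal differentiation. Both genes are short, at 2.62 kb on chr7:53631844-53634462 and 2.54 kb on chr1:136186581-136189124 (mm9, plus strand). Neither had a peak of any list at its promoter or in its body. The nearest H3K27ac peak to Myod1 was at 334 kb in both replicates and the double deletion, and at 263 kb in the WT and fibroblast lists. H3K4me2 came no closer than 19.3 kb, under the promoter of the neighbouring potassium channel gene Kcnc1. At Myog, the chondrocyte H3K27ac lists had their nearest peaks between 71.1 and 71.3 kb away. Fibroblasts had a narrow peak of 223 bp 6.43 kb upstream of Myog at chr1:136180035-136180257, in the top 56.6% of that list by score, with no peak of another mm9 list over it. Of 3 H3K4me2 peaks in the Myog flank, one lay 9.15 kb downstream of the TSS within the gene Ppfia4, one under the promoter of Ppfia4 and one 45.6 kb upstream.

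The 250 bases before each TSS are shown for these bare muscle promoters because they differ in CpG content although neither had a listed peak. CpG pairs are in capitals, as in every sequence given here, and both sequences are from mm9, plus strand (chr7:53631594-53631843 and chr1:136186331-136186580).
Myod1: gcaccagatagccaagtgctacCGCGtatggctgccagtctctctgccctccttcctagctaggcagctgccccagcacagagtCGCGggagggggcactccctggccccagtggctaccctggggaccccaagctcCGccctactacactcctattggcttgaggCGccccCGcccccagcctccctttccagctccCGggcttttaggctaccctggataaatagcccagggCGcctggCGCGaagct
Myog: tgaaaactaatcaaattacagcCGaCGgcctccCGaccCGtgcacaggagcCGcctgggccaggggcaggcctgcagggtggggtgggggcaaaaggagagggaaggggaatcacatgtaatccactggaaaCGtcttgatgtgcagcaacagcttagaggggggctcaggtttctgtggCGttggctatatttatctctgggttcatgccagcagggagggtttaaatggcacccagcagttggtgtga
The Myod1 stretch holds 11 CpG pairs and the Myog stretch 7. Both hold the letters CANNTG of an E-box, the motif bound by basic helix-loop-helix factors, at 2 places, and the motif was searched on both strands, where it reads the same. Of the 18094 promoters, 62.6% hold it in the same 250 bases. Among the 10 regulators it was found in Myod1, Myog and Gata1.

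Myf5 and Pax3 act early in muscle, Myf5 as a first member of the Myod1 family to come on and Pax3 upstream of it in migrating precursors and in the neural crest. Myf5 (chr10:106919964-106923190, minus strand) had an H3K4me2 peak of 1313 bp at chr10:106920906-106922218, over coding sequence. Its near edge lay 972 bp from the TSS, just inside the 1 kb limit, and at a reach of 500 bp Myf5 counted as bare. A second H3K4me2 peak, 7.19 kb upstream, lay under the promoter of the adjoining family member Myf6. The nearest H3K27ac peak to Myf5 was 87.2 kb away for replicate 1, 285 kb for fibroblasts, 419 kb for WT, 420 kb for the double deletion and 674 kb for replicate 2. The lists thus differed widely on this distance, and none came within the 50 kb flank.

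Pax3 (chr1:78097842-78193709, minus strand) is the longest of the 10 genes at 95.9 kb. An H3K4me2 peak of 2532 bp covered its TSS at chr1:78191810-78194341, in the top 14.5% of that list by score. There were 4 more in the body, between 7.53 and 67.9 kb downstream of the TSS, and none of them overlapped an exon. The strongest of 6 in the flank lay 19.9 kb upstream, was 3056 bp wide (chr1:78212036-78215091) and ranked in the top 3.45%. One 697 bp peak of replicate 1, at chr1:78054487-78055183 and 139 kb downstream of the TSS, was the only H3K27ac peak within 50 kb of the gene. It ranked in the top 61.6% and overlapped 1 of the 11 H3K4me2 peaks. The other 4 H3K27ac lists had no peak in the gene or its flanks.

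Pax6 is the homeodomain and paired-domain factor of eye and forebrain. Its locus (chr2:105509053-105543317, plus strand) carried only H3K4me2. A peak of 2978 bp covered the TSS at chr2:105507301-105510278, in the top 41.6%, and the gene body held 3 more. These were 3331 bp at 6.76 kb, 1093 bp at 13.7 kb and 2835 bp at 19.8 kb downstream, in the top 7.77%, 14.7% and 1.92%. The annotation lists 21 coding transcript starts along Pax6, and the H3K4me2 peaks of the body ranked above the one at the 5′ end. Its 2 flank peaks lay 8.02 kb upstream (top 30.1%) and 46.9 kb downstream within Elp4 (top 46.4%). The nearest H3K27ac peak was at 191 kb in replicate 2 and between 235 and 236 kb in the other 4 lists. Pax6 had no H3K27ac peak at any of its starts.

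Neurog2, a proneural basic helix-loop-helix factor, had the widest promoter peak of the 10, with 3970 bp of H3K4me2 at chr3:127333948-127337917 (top 12.8%), which covered the TSS and most of the gene of 2.5 kb. Olig2, which specifies oligodendrocytes and motor neurons, had an H3K4me2 peak of 2109 bp centred 13 bp from the TSS at chr16:91224754-91226862 (top 44.4%). Of 3 H3K4me2 peaks in the Olig2 flank, the strongest (top 24.9%) sat under the promoter of its neighbour Olig1, 44.6 kb downstream. Neurog2 had 3 flank peaks of H3K4me2, the strongest 7.38 kb upstream in the top 26.3%. Neither gene had an H3K27ac peak within 50 kb in any list. The nearest H3K27ac peak was between 79.0 and 79.7 kb from Neurog2 and between 127 and 147 kb from Olig2. The 250 bases before the TSS are shown for both, as the CpG-rich promoters with H3K4me2 alone (mm9, plus strand, chr3:127335804-127336053 and chr16:91225545-91225794).
Neurog2: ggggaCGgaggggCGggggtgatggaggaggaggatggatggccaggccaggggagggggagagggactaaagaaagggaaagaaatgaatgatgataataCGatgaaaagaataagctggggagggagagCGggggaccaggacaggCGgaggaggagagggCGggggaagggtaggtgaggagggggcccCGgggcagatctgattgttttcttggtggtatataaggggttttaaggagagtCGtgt
Olig2: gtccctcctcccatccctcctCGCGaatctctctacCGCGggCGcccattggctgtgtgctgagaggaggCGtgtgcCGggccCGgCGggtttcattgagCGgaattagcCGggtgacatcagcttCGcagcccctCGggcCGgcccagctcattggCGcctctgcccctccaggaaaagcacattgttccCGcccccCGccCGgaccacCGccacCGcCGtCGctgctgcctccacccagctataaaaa
The Olig2 stretch holds 22 CpG pairs and the Neurog2 stretch 8, although over the full window of 1 kb on either side Neurog2 had the most of the 10 genes, with 165.

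Gata1, the zinc finger factor of red cells and megakaryocytes, had no peak of any list at its promoter or along its 18.8 kb body (chrX:7536386-7555197, minus strand). This held for each of its 3 annotated coding transcript starts. Of its 3 flank peaks of H3K4me2, 2 sat under the promoter of Hdac6, the strongest in the top 26.6%, and the third lay 55.1 kb downstream of the TSS in Pcsk1n. A fibroblast H3K27ac peak of 310 bp (chrX:7524614-7524923, top 83.5%) was also under the Hdac6 promoter. Chondrocyte H3K27ac peaks were no nearer than 76.9 kb for replicate 2, 78.1 kb for both genotyped libraries and 78.5 kb for replicate 1.

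Spi1, which encodes PU.1 of macrophages and B cells and is named Sfpi1 in the mm9 annotation, was the only one of the 10 with H3K27ac in its body. The promoter was bare, and the nearest H3K4me2 peak (top 15.5%) lay 3.68 kb upstream at chr2:90918157-90919580. Near the 3′ end of the gene (chr2:90922547-90955913, plus strand), replicate 1 had a peak of 686 bp at chr2:90952865-90953550, centred 30.7 kb downstream of the TSS. Replicate 2 had one of 833 bp at chr2:91112318-91113150 (GRCm38), centred 30.4 kb downstream in its own build, with a deposited fold enrichment of 5.78 over local background. They ranked in the top 34.5% and 39.7% of their lists. H3K4me2 had a peak of 1260 bp over the replicate 1 position (top 47.0%) and 2 more in the body, 19.1 and 33.1 kb downstream, without H3K27ac. The WT, double deletion and fibroblast lists had no peak in the body of Spi1. Gene body peaks outside the promoter were found for 20.8% of all genes by replicate 1, 16.6% by replicate 2, 38.8% by H3K4me2, 15.7% by fibroblasts, 21.8% by WT and 17.0% by the double deletion. Among the 10 regulators they were found for 1, 1, 3, 0, 0 and 0 genes in the same order, and the 3 with H3K4me2 were Pax3, Pax6 and Spi1, the longest of the 10 genes. The 300 bases at the middle of the replicate 1 peak (mm9, plus strand, chr2:90953057-90953356) overlap no annotated exon, although the whole peak overlaps coding sequence of Spi1. They are shown as the one acetylated stretch inside any of the 10 genes, with the bare Spi1 promoter (chr2:90922297-90922546) above it.
Spi1 promoter: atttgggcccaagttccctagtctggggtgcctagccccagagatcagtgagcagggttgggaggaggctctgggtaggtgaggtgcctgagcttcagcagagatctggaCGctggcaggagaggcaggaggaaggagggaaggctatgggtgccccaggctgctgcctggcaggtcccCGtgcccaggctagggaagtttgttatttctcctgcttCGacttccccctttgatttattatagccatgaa
Spi1 body: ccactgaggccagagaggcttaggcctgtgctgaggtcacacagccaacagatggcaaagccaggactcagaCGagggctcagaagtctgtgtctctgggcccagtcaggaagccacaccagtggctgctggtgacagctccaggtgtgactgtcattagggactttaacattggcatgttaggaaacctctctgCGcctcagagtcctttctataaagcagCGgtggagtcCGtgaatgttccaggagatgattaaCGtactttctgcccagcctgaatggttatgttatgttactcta
The promoter stretch holds 3 CpG pairs in 250 bases and the body stretch 5 in 300.

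The upstream side of Spi1 was acetylated in all 5 H3K27ac lists, at promoters of its neighbours. The peak at the proteasome gene Psmc3 lay 27.8 kb upstream in replicate 1 and the peak at the zinc transporter gene Slc39a13 12.6 kb upstream. They ranked in the top 4.99% and 4.24% of replicate 1, 4.98% and 12.4% of replicate 2, 1.59% and 4.33% of WT, 1.1% and 5.16% of the double deletion and 12.8% and 11.1% of fibroblasts. Another region, centred 20.2 kb upstream of Spi1 in WT, was under no TSS and lay within Slc39a13 and Psmc3. It had 3302 bp and a fold enrichment of 15.7 in WT (top 21.8%), and 2119 bp and 6.62 in the double deletion (top 43.3%), with 1 library each and thus no measure of spread. Its rank was the top 49.6% in fibroblasts and 73.5% in replicate 1, and replicate 2 split it into 3 peaks of 924, 523 and 348 bp. These peaks account for all flank peaks of H3K27ac at Spi1.

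Foxa2, a forkhead factor of gut, liver and floor plate, was the only gene besides Spi1 with a chondrocyte H3K27ac peak within 50 kb of its TSS. Its H3K4me2 promoter peak of 3153 bp (chr2:147869746-147872898, top 51.1%) covered the TSS and most of the gene (chr2:147868613-147872705, minus strand). A second H3K4me2 peak, 1573 bp wide, began 1174 bp upstream of the TSS, just outside the 1 kb limit, and was centred at 1.96 kb. Replicate 2 had an H3K27ac peak of 354 bp centred 1.91 kb upstream in its own build, with its near edge 1730 bp from the TSS. Its fold enrichment was 3.69 and its −log10 q 4.62, in the top 81.3% of the list, and no other H3K27ac list had a peak there. Farther upstream, replicate 1 had a peak of 1132 bp centred at 21.9 kb (top 51.0%) and WT one of 745 bp centred at 21.6 kb (top 59.8%, fold enrichment 6.15), which overlapped each other and an H3K4me2 peak of 1717 bp. The other 3 H3K27ac lists had no peak in that part of the flank. The nearest H3K27ac peak to the Foxa2 TSS was 118 kb away in the double deletion and 280 kb away in fibroblasts. The strongest H3K4me2 peak of the flank (top 17.7%) lay 7.33 kb downstream and carried no H3K27ac. The 300 bases below belong to the WT peak (mm9, plus strand, chr2:147894375-147894674), contain its summit and overlap no annotated exon. They are shown as the single acetylated stretch near any of the 10 genes that 2 chondrocyte libraries shared outside the Spi1 locus.
Foxa2 upstream: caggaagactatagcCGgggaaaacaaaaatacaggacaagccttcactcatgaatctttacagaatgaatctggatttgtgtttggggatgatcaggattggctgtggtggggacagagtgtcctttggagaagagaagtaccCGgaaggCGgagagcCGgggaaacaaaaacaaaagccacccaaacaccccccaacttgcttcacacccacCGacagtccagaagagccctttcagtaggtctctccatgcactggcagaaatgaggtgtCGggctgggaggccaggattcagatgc

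**Figure D3:**
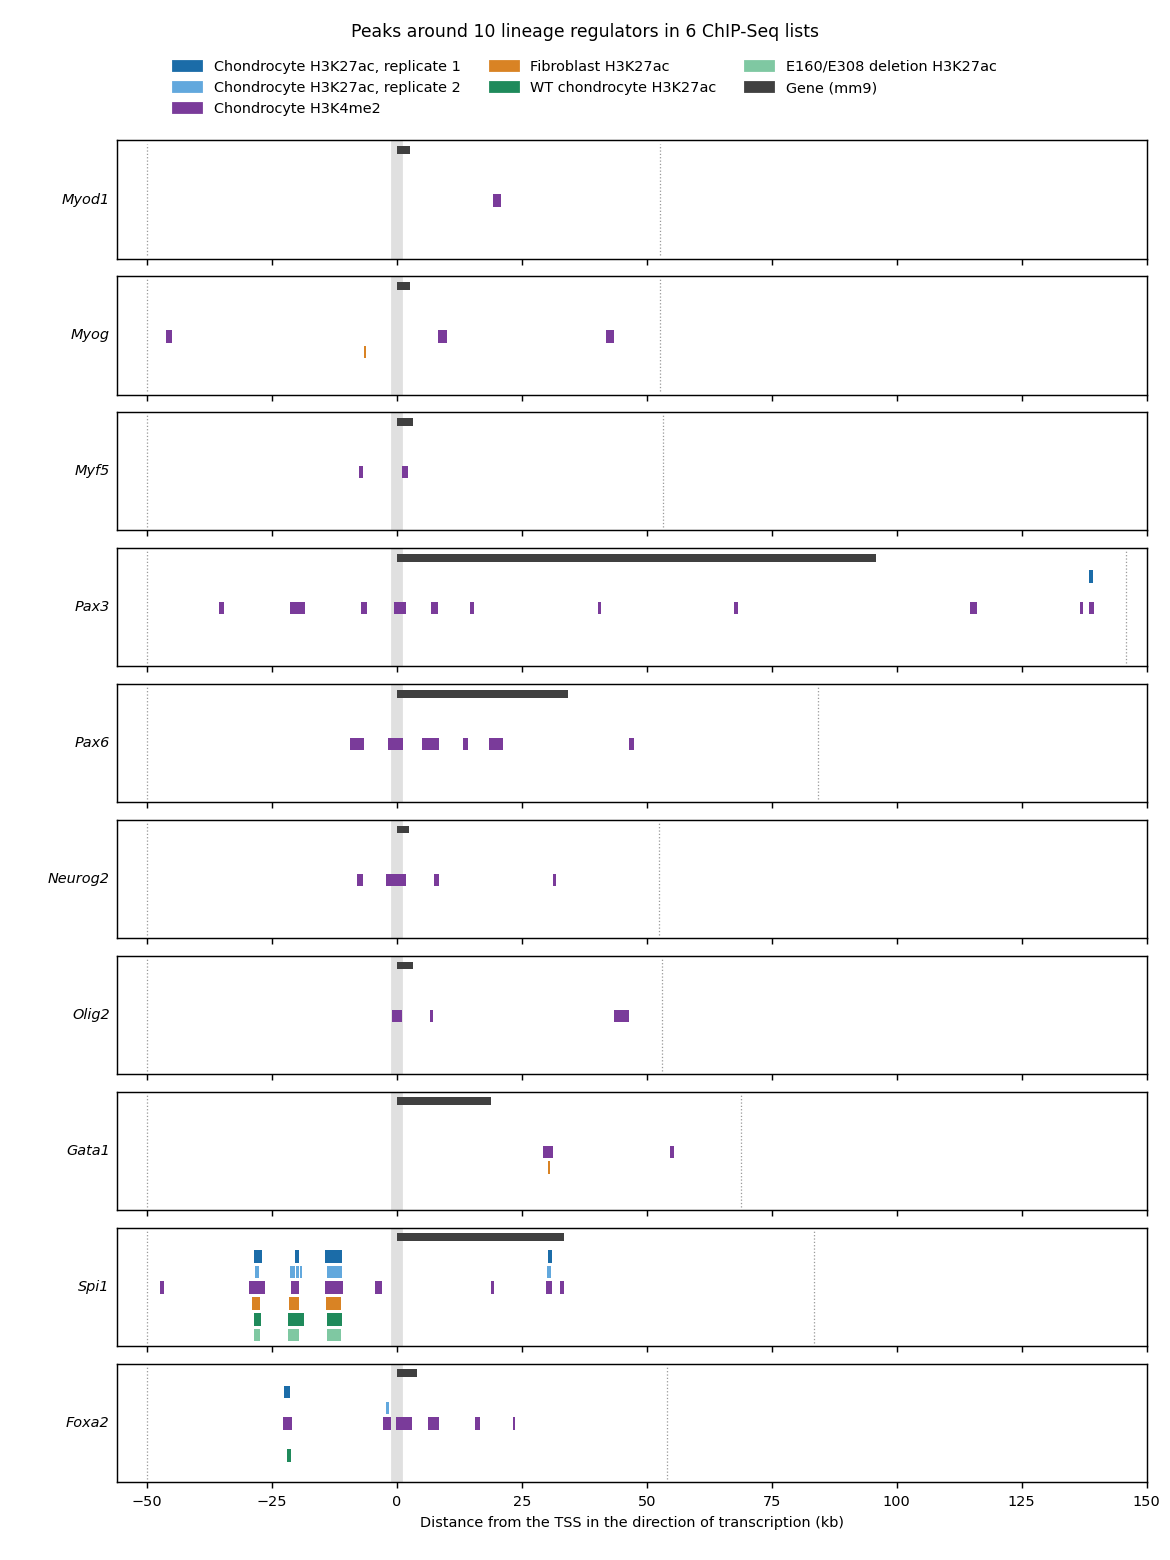
Peaks of 6 lists around each of the 10 regulators by distance from the TSS (kb, in the direction of transcription). Coloured bars are peaks (drawn at least 0.5 kb wide), dark bars the genes, the grey band 1 kb on either side of the TSS and dotted lines 50 kb from the gene ends. H3K4me2 crosses the grey band at 6 genes, and H3K27ac peaks appear at Pax3, Spi1 and Foxa2, and in fibroblasts at Myog, Gata1 and Spi1.

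Within 50 kb of a gene, outside its body and promoter, an H3K27ac peak was found for 64.5% of all genes by replicate 1, 58.0% by replicate 2, 65.4% by WT, 60.7% by the double deletion and 63.1% by fibroblasts. Among the 10 regulators the counts were 3, 2, 2, 1 and 3. With peaks at the TSS of another gene left out, the counts were 3, 2, 2, 1 and 2, against 41.5%, 37.2%, 44.7%, 35.8% and 34.4% of all genes. The counts depended on the reach of the flank, and at 100 kb they were 7, 5, 6, 4 and 4, against 78.1%, 72.3%, 77.9%, 74.6% and 76.5% of all genes. The chondrocyte lists named Spi1 each time, with Foxa2 in replicates 1 and 2 and WT and Pax3 in replicate 1, while fibroblasts named Myog, Gata1 and Spi1. H3K4me2 had a flank peak at all 10 regulators and at 83.0% of all genes, and at 8 of the 10 and 74.4% of all genes without peaks at another TSS. The part of the window of gene and flanks under H3K4me2 peaks had a median of 5.94% over the 10 regulators and 6.27% over all genes. It was highest at Pax6 (10.4%) and Spi1 (10.1%) and lowest at Myod1 (1.55%). For H3K27ac the covered part was 0 at 7 of the 10 in replicate 1 and in fibroblasts, at 8 for replicate 2 and WT and at 9 for the double deletion. Between 24.3% and 29.3% of all genes had none in these lists.

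H3K4me2 peaks near the regulators seldom coincided with H3K27ac. Of 39 H3K4me2 peaks in the promoters, bodies and flanks that were not at the TSS of another gene, 4 overlapped an H3K27ac peak of replicate 1, WT or the double deletion (10.3%). They lay 2 at Spi1, 1 at Foxa2 and 1 at Pax3. None of the 17 at the other 7 genes did, which is no further result, as these lists had no peak in those genes or their flanks. Over the genome 46.0% of 66355 H3K4me2 peaks overlapped one of these lists, and 36.9% of those away from promoters did. The 39 peaks lie in clusters at 9 loci and are not independent of each other. They include the promoter peaks of the 6 genes classed as H3K4me2 alone, a mix that neither genome share matches. Replicate 2, in another build, was left out. Its Foxa2 peak, centred 1.91 kb upstream, lay at the distance of an H3K4me2 peak (centred 1.96 kb upstream) counted here as without H3K27ac. The H3K4me2 promoter peaks of the 6 regulators had a median width of 2755 bp (1313 to 3970). The median was 1541 bp over the 2893 promoters with H3K4me2 alone and 2293 bp over the 9093 acetylated promoters with H3K4me2. By rank, the medians were the top 28.0% for the 6, 16.1% and 15.2%.

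Promoter sequence was compared next, as a property that did not choose the genes. CpG content was counted within 1 kb on either side of the TSS as observed over expected, the number of CpG pairs over that given by the C and G content. Over all genes its median was 0.17 at bare promoters, 0.50 at promoters with H3K4me2 alone and 0.63 at acetylated promoters. Among the bare regulators it was 0.18 for Spi1, 0.23 for Gata1, 0.30 for Myog and 0.54 for Myod1. Among those with H3K4me2 it was 0.38 for Myf5, 0.59 for Pax3, 0.61 for Pax6 and Foxa2, 0.68 for Olig2 and 0.86 for Neurog2. The groups overlapped at one place, with Myod1 above Myf5. Genes were then split by this value into 4 groups of like size. In the group that held Myod1, with values from 0.49 to 0.67, 2.5% of promoters were bare, 20.6% had H3K4me2 alone and 76.9% were acetylated. Myod1 was thus bare where few genes of like CpG content were. Spi1 lay in the lowest group, where 87.5% were bare, and Myog, Gata1 and Myf5 in the next, where 35.3% were. In the highest group, which held Neurog2 and Olig2, 12.5% had H3K4me2 alone and 86.9% were acetylated.

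**Figure D4:**
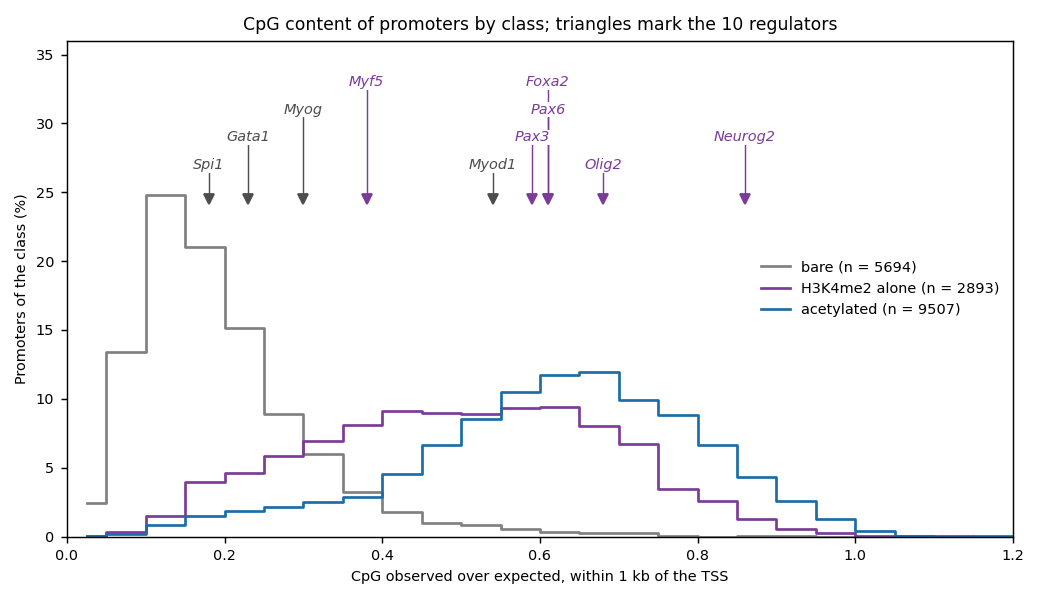
CpG observed over expected within 1 kb of the TSS (x axis) for the promoters of each class (y axis, % of the class, bins of 0.05). Triangles mark the 10 regulators at a fixed height, grey for bare and purple for H3K4me2 alone; bare genes lie at 0.18 to 0.54 and H3K4me2 genes at 0.38 to 0.86.

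A wider set of 39 other regulators of the same lineages was read in the same way. Of these, 7 were bare, 20 had H3K4me2 alone (51.3%) and 12 were acetylated (30.8%) in at least 1 chondrocyte list. Over all genes the shares were 31.5%, 16.0% and 52.5% in the same order. The neural list was closest to the 10 regulators, with 7 of 9 promoters carrying H3K4me2 alone and none acetylated in any list. In the endoderm list 7 of 10 had H3K4me2 alone and 2 were acetylated. Foxa3 had H3K27ac in all 4 chondrocyte lists, but its peaks also reached the TSS of Sympk. Gata6 had it in WT (top 77.5%) and in fibroblasts (top 35.8%). The muscle list had 5 acetylated promoters of 10. Among them were Six4 and Eya1 in all 4 chondrocyte lists and Mef2a and Mef2d in 3 each, genes that also act outside muscle. A promoter peak at Six4 also reached the TSS of Mnat1. In the blood list 5 of 10 were acetylated, as in the muscle list, which is near the 52.5% of all genes. Runx1, also a regulator of skeletal cells, and Cebpa were marked in all 4 lists, Fli1 in 3, and Klf1 and Lyl1 in WT alone. Fibroblasts marked 10 of the 39 promoters, against 47.5% of all genes. These were 4 of the muscle list, 3 of the blood list and 3 of the endoderm list.

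Terminal marker genes of other cell types were counted for the question of other cells in the cultures. No skeletal muscle marker of 10, such as Ckm and Acta1, had an H3K27ac promoter peak in any list, and 1 of 10 had H3K4me2. Erythroid, endoderm and keratinocyte markers also had 0 of 10 in each H3K27ac list, with H3K4me2 at 2, 4 and 5 of 10. Of 10 macrophage and leukocyte markers, Fcer1g alone had H3K27ac, in replicate 1 only and in the top 88.4% of that list, while Ptprc and Csf1r had no peak in any list. Of 10 endothelial markers, Erg alone had chondrocyte H3K27ac, in 3 lists, and Tek alone had it in fibroblasts. Pecam1, Cdh5, Tie1, Egfl7, Esam and Emcn had no promoter peak in any list. Of the neural and Schwann cell list, 2 of 10 were marked in each chondrocyte H3K27ac list and 1 in fibroblasts. One of them, S100b, is also expressed in cartilage. The melanocyte list had 4 of 10 in replicate 1 (44.2% of all genes there), 2 in each other chondrocyte H3K27ac list and 3 in fibroblasts. Among them the Pmel peaks reached the TSS of Cdk2 and Rab5b, Mitf was marked in 3 chondrocyte lists, Ednrb in replicates 1 and 2 and Mlana in replicate 1 alone. Dermal fibroblast genes were marked in chondrocytes too, with 6 of 10 by replicate 1, 8 by replicate 2 and 9 by each of the WT and double deletion libraries. Whether the Spi1 and Foxa2 peaks came from chondrocytes or from any other cell type was not tested.

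**Figure D5:**
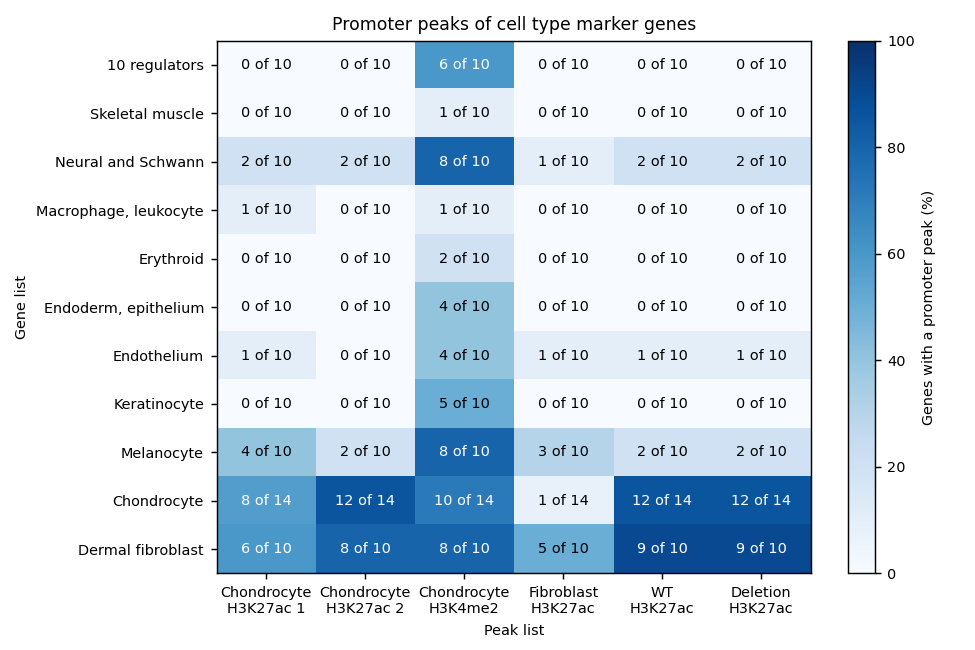
Number of genes with a promoter peak (and share in %, by colour) for the 10 regulators and 10 lists of marker genes, 1 row per gene list and 1 column per peak list. The rows of skeletal muscle, erythroid, endoderm and keratinocyte genes show 0 in all 5 H3K27ac columns, and the chondrocyte row shows 8 to 12 of 14 in chondrocyte H3K27ac lists and 1 of 14 in fibroblasts.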

How the data were processed

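Peak calls of 6 ChIP-Seq libraries were analysed. According to the study's methods, fastp was used for read cleaning, Bowtie2 2.4.4 for mapping (to mm9) and MACS2 2.2.4 for peak calling per library at the default q-value, with input as control. The deposited score ranks peaks within a list and starts at 50 in the replicate 1, H3K4me2 and fibroblast lists, whose format is that of an earlier MACS release. The other lists also hold the deposited fold enrichment (a ratio) and −log10 p and q-values at the summit.

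Replicate 2 was read with RefSeq GRCm38 positions and the others with GENCODE vM1 on mm9. Genes were matched between them by symbol (18089) or, for listed genes, an older symbol (5), and 1 listed gene was not matched. The TSS was the 5′ end of the gene. Peaks were assigned to the promoter (within 1 kb of the TSS), else to the body, else to the flanks (50 kb). A promoter was acetylated with a peak in any of 4 chondrocyte H3K27ac lists. Top percent is the share of a list scoring at least as high.

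The 10 genes and all gene lists were chosen with earlier results of these data known. By rule, all 10 genes were named, with their flank peaks where a list had up to 3 (otherwise the strongest), and up to 6 acetylated genes per other list. Other names were added where their values bear on a result. Some listed genes are counted but not reported by name. Python 3.11.15, scipy 1.17.1 and matplotlib 3.10.9 were used, sequences came from the NCBIM37 (mm9) genome, and the counting was checked on simulated peaks and with bedtools 2.31.1.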

Additional observations from a re-analysis of the deposited data

How the results depend on the processing

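Promoter, body and flank counts were recomputed under 12 settings, giving 120 counts, of which 106 stayed within 1.5 times the reported value. Part of the 106 could not move, so their number does not measure stability. Body counts do not depend on the flank reach or on the TSS of other genes, and a peak count of 0 cannot rise where peaks are left out. Taking the 19458 highest-scoring peaks of every list left 3 promoters with H3K4me2 alone (Myf5, Pax3 and Neurog2) and 7 bare, and the H3K4me2 list then marked 3 of the 10. Over all genes this setting gave 12.3% with H3K4me2 alone and 37.3% bare. At a promoter reach of 2 kb, 1 gene, Foxa2, became acetylated, by the replicate 2 peak, so that replicate 2 marked 1 promoter. Of the other settings, only the use of any annotated transcript start could have added an H3K27ac promoter peak, and it added none at the 10. The rest narrowed the reach, left out peaks or lists, or made the rule stricter, so they could not add one. H3K4me2 was lost at Myf5 with a reach of 500 bp and at Foxa2 with the higher-scoring 50% of peaks. Leaving out either chondrocyte replicate gave 4 bare, 6 with H3K4me2 alone and 0 acetylated. This could not come out otherwise, because neither replicate had a promoter peak at any of the 10.

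With flanks of 100 kb, the genes with an H3K27ac flank peak numbered 7 for replicate 1, 5 for replicate 2, 6 for WT and 4 for the double deletion, against 78.1%, 72.3%, 77.9% and 74.6% of all genes. With the higher-scoring 50% of each list they numbered 1 for each of replicate 1, replicate 2, WT and fibroblasts, against 53.4%, 49.8%, 58.3% and 51.2% of all genes. Under the same setting 13 of the 39 other regulators were bare, as were 35.3% of all genes. Fewer peaks enter under the latter setting by its construction, and a wider flank holds more. No paired analysis was possible because only the chondrocyte H3K27ac group was replicated and no test was run. The chief limits are 1 library in most groups, unknown depth, and lists in older format that lack peaks at Col2a1 or Col1a1.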
